A study of Mus musculus with 6 samples.

Results

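The data on 8 genes of the cholesterol pathway are reported for the injured mouse kidney: *Hmgcs1*, *Idi1*, *Fdft1*, *Sqle*, *Lss*, *Cyp51*, *Srebf2* and *Insig1*. They were chosen by symbol, and each of the 8 symbols named exactly 1 of the 21367 genes in the deposited table. RNA came from the left kidneys of 3 *Ptpn6*+/mev mice and 3 wild-type littermates on a C57BL/6 background. All 6 mice were 7 weeks old, had lost the right kidney, and were killed at 24 h after 34 min of clamping of the left renal pedicle, so ischemia-reperfusion injury (IRI) was common to both groups and no uninjured kidney was analysed here. The mev (viable motheaten) allele is a germline mutation of *Ptpn6*, which encodes the tyrosine phosphatase SHP-1, and the heterozygous mice, labelled SHP1 knockdown, keep 1 wild-type copy in every cell.

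Cholesterol is built in the cytosol and endoplasmic reticulum from acetyl-CoA, through mevalonate, isoprenoid units, squalene and lanosterol. The transcription factor SREBP2, encoded by *Srebf2*, is held in the endoplasmic reticulum by the escort SCAP and the INSIG proteins while sterols are plentiful. When sterols fall, it moves to the Golgi, is cut by proteases and enters the nucleus, where it raises the genes of the enzymes, of *Insig1* and of *Srebf2* itself. In the kidney the tubular epithelium, above all the proximal tubule, depends on membrane cholesterol for its brush border and its endocytic uptake.

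Of the 8 genes, 0 passed the test between *Ptpn6*+/mev and wild-type kidneys, where 0.138% of all genes tested passed, and 0 had groups that did not overlap, against 20.4% of all genes tested. The test was the quasi-likelihood test of edgeR on counts, and an adjusted p is corrected over all genes tested. Levels are given as FPKM, fragments relative to transcript length and to the total of the library. They varied from mouse to mouse, with the same *Ptpn6*+/mev animal, replicate 2, the highest of its group in 8 of 8 genes. *Hmgcs1*, an early enzyme of the pathway, had the largest difference, with means of 49.4 ± 9.88 FPKM for *Ptpn6*+/mev and 65.0 ± 10.9 FPKM for wild-type kidneys (SD, n = 3 each).

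In all sentences that give 3 values for a group, they are in the order of replicates 1, 2 and 3. Counts summed to between 10271590 and 12361745 per library, and within each group the libraries differed beyond counting noise (chi-square per degree of freedom 6.48 to 45.3). The kidney was recognisable by *Umod*, the defining product of the thick ascending limb, at 1628 to 2556 FPKM, and by *Slc34a1*, the proximal tubule phosphate transporter, at 176 to 313. *Ptpn6* itself had 11.85, 14.7 and 13.6 FPKM in the *Ptpn6*+/mev animals, whereas the wild-type animals had 17.5, 10.9 and 15.4, so its mRNA level did not separate the groups (adjusted p = 0.715, edgeR). The mutation lies at a splice site, and gene-level values do not tell mutant from wild-type transcripts. The paper checked the mutation by Sanger sequencing and SHP-1 protein by western blot, and describes decreased SHP-1 expression in heterozygous mice. Wild-type replicate 2 stood apart from the other libraries: its summed FPKM of 5 endothelial markers was 48.0, against 114.4 to 123.0 in the others, and its TMM factor, which corrects a library's total for its composition, was 0.929, against 0.994 to 1.03. In whole tissue, fewer cells of a type and less RNA per cell cannot be told apart.

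Upstream sequence of 4 of the genes is printed because the set is known for shared sterol control and because *Ptpn6*+/mev replicate 2 was the highest of its group in each member. RefSeq start sites and sequences of GRCm38.p6 were found for 6 of the 8 genes, and *Sqle* and *Fdft1* had none in that table. Letters of 3 motifs were searched on both strands from 250 bases before to 50 bases after the start: TCACNCCAC for the sterol regulatory element that SREBPs bind, CCAAT for the box bound by NF-Y, a known partner of SREBPs, and CACGTG for the E-box. The stretches below are written 5′ to 3′ on the strand of the gene, all 4 on the plus strand, and stop before the first of the starts that RefSeq and GENCODE annotate. Match positions count from the RefSeq start, which for *Lss*, *Srebf2* and *Insig1* lies downstream of the end of the stretch. Capitals mark the matches, and a match on the opposite strand reads ATTGG for the CCAAT box. *Hmgcs1* is at chr13:119690101-119690350, *Lss* at chr10:76531355-76531587, *Srebf2* at chr15:82147019-82147180 and *Insig1* at chr5:28071162-28071362.
Hmgcs1: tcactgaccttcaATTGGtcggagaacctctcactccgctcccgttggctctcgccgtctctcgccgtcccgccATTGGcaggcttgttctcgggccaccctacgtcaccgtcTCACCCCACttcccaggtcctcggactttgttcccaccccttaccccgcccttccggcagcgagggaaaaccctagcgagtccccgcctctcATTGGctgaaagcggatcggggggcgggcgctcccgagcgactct
Lss: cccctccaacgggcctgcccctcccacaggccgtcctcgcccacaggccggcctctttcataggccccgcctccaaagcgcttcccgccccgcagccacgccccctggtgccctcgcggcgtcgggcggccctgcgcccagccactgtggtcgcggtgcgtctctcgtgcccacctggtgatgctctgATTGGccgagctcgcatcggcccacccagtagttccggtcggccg
Srebf2: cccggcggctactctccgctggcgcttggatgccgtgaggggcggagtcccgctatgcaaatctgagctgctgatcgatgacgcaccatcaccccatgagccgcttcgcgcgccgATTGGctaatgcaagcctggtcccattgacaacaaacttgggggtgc
Insig1: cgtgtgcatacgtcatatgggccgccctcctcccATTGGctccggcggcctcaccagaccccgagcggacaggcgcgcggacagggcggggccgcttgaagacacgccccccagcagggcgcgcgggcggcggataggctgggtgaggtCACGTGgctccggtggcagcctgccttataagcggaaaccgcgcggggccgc
The sterol regulatory element letters were found in 1 of the 6 promoters, that of *Hmgcs1*, with the first base at -137 from the start, and in 1.24% of all 32851 promoters in the table. A CCAAT box was found in 6 of 6, against 37.4% of all promoters, and in 11 of the 15 promoters that the table holds for 12 of the other enzymes of the pathway. *Insig1* alone among the 6 held an E-box, at -101, as did 7.15% of all promoters. Of the same 15 promoters of other enzymes, 0 held the sterol regulatory element letters and 3 held an E-box. A match describes letters in a window and is not a bound site, and sites that differ from these letters by a base were not counted.

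The first enzyme of the set, *Hmgcs1*, lies on chromosome 13 from 119690379 to 119708260 and encodes the cytosolic HMG-CoA synthase, which acts on acetyl-CoA units on the way to mevalonate. It had 43.3, 60.8 and 44.2 FPKM in the *Ptpn6*+/mev animals, whereas the wild-type animals had 76.85, 55.55 and 62.5. *Ptpn6*+/mev replicates 1 and 3 lay below all wild-type mice, while replicate 2 lay within their range. The log2 fold change was -0.44 (standard error 0.16, 95% interval -0.81 to -0.07). At an unadjusted p of 0.0266 the adjusted p over all genes tested was 0.322 (edgeR's quasi-likelihood test), so the difference did not pass.

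Isopentenyl-diphosphate isomerase, encoded by *Idi1* on chromosome 13 from 8885501 to 8892451, interconverts the isomeric isoprenoid units. Its FPKM was 16.1, 25.2 and 14.95 in the *Ptpn6*+/mev animals, whereas the wild-type animals had 15.8, 15.1 and 16.25. *Ptpn6*+/mev replicate 2 stood above the other 5 mice, which were close together. The log2 fold change was 0.11 (95% interval -0.47 to 0.69, adjusted p = 0.914, edgeR). For this gene counts and FPKM did not run in parallel: counts were 409, 610 and 316 in the *Ptpn6*+/mev animals, whereas the wild-type animals had 333, 463 and 490. The transcript length that the deposited counts and FPKM together imply for *Idi1* ranged from 1.95 to 2.79 kb between libraries, a ratio of 1.43 where the median gene had 1.02, so its order among mice depends on the unit. The other 7 genes had a ratio of at most 1.1.

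Squalene synthase, the first enzyme committed to sterols, is encoded by *Fdft1* on chromosome 14 from 63145150 to 63179578. It had 12.1, 20.7 and 13.0 FPKM in the *Ptpn6*+/mev animals, with a mean of 15.25 ± 4.75 (SD, n = 3). The wild-type animals had 17.1, 14.01 and 18.9 FPKM, with a mean of 16.7 ± 2.46 (SD, n = 3). The *Ptpn6*+/mev mice held both the highest value and the 2 lowest. Its log2 fold change was -0.22 (95% interval -0.70 to 0.25, adjusted p = 0.733, edgeR). *Fdft1* was the only one of the 8 genes with fractional counts, which can arise where reads are shared with a similar gene, so its level is uncertain by an unknown amount.

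*Sqle* encodes squalene epoxidase, a rate-limiting enzyme that acts on squalene, and lies on chromosome 15 from 59315077 to 59331192. Its values were 28.2, 41.7 and 26.8 FPKM in the *Ptpn6*+/mev animals, whereas the wild-type animals had 36.4, 27.0 and 45.03. Low and high mice occurred in both groups, and *Ptpn6*+/mev replicates 1 and 3 sat close to wild-type replicate 2. Group means of 32.2 ± 8.25 and 36.1 ± 9.04 FPKM (SD, n = 3 each) differed by less than 1 SD (log2 fold change -0.23, 95% interval -0.71 to 0.26, adjusted p = 0.736, edgeR).

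Lanosterol synthase, which closes the sterol rings, is the product of *Lss* on chromosome 10 from 76531588 to 76557138. It was the lowest of the 8 genes, at 5.92, 7.26 and 4.82 FPKM in the *Ptpn6*+/mev animals, whereas the wild-type animals had 6.45, 4.47 and 6.72. The groups shared the same range, and the log2 fold change was -0.03 (95% interval -0.47 to 0.40, adjusted p = 0.968, edgeR). *Cyp51*, on chromosome 5 from 4081145 to 4104746, encodes the lanosterol 14-alpha-demethylase. It had 17.8, 27.5 and 15.4 FPKM in the *Ptpn6*+/mev animals, whereas the wild-type animals had 17.9, 15.4 and 22.1, with the extremes in *Ptpn6*+/mev replicate 2 and wild-type replicate 2. Its log2 fold change was 0.07 (95% interval -0.43 to 0.57, adjusted p = 0.939, edgeR).

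The regulator *Srebf2*, on chromosome 15 from 82147181 to 82205379, was the steadiest of the 8 genes, with 27.1, 32.5 and 29.05 FPKM in the *Ptpn6*+/mev animals, whereas the wild-type animals had 32.1, 28.6 and 34.5. Its highest value was 1.28 times its lowest. The log2 fold change of -0.17 (standard error 0.10, 95% interval -0.40 to 0.06, adjusted p = 0.554, edgeR) came with the narrowest interval of the 8 genes. SREBP2 activity depends on cleavage of the protein, which mRNA levels do not measure. Its paralog *Srebf1*, whose products act mainly on fatty acid synthesis, had 12.4 ± 1.64 and 11.5 ± 2.67 FPKM (SD, n = 3 each) in *Ptpn6*+/mev and wild-type mice (adjusted p = 0.905, edgeR).

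*Insig1*, on chromosome 5 from 28071363 to 28078662, is itself raised by SREBP2, and its protein retains the SCAP and SREBP complex. It varied most: 8.96, 19.8 and 9.68 FPKM in the *Ptpn6*+/mev animals, whereas the wild-type animals had 14.8, 13.0 and 15.25. All 3 wild-type mice fell between *Ptpn6*+/mev replicate 2 above and replicates 1 and 3 below. The highest mouse had 2.21 times the FPKM of the lowest, and within the wild-type group the ratio was 1.17. The mean difference was within the spread (log2 fold change -0.23, 95% interval -0.88 to 0.42, adjusted p = 0.819, edgeR). *Insig2*, its paralog, which SREBP2 does not raise, had 33.9 to 37.6 FPKM in *Ptpn6*+/mev mice and 32.8 to 44.7 in wild-type mice.

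**Figure D1:**
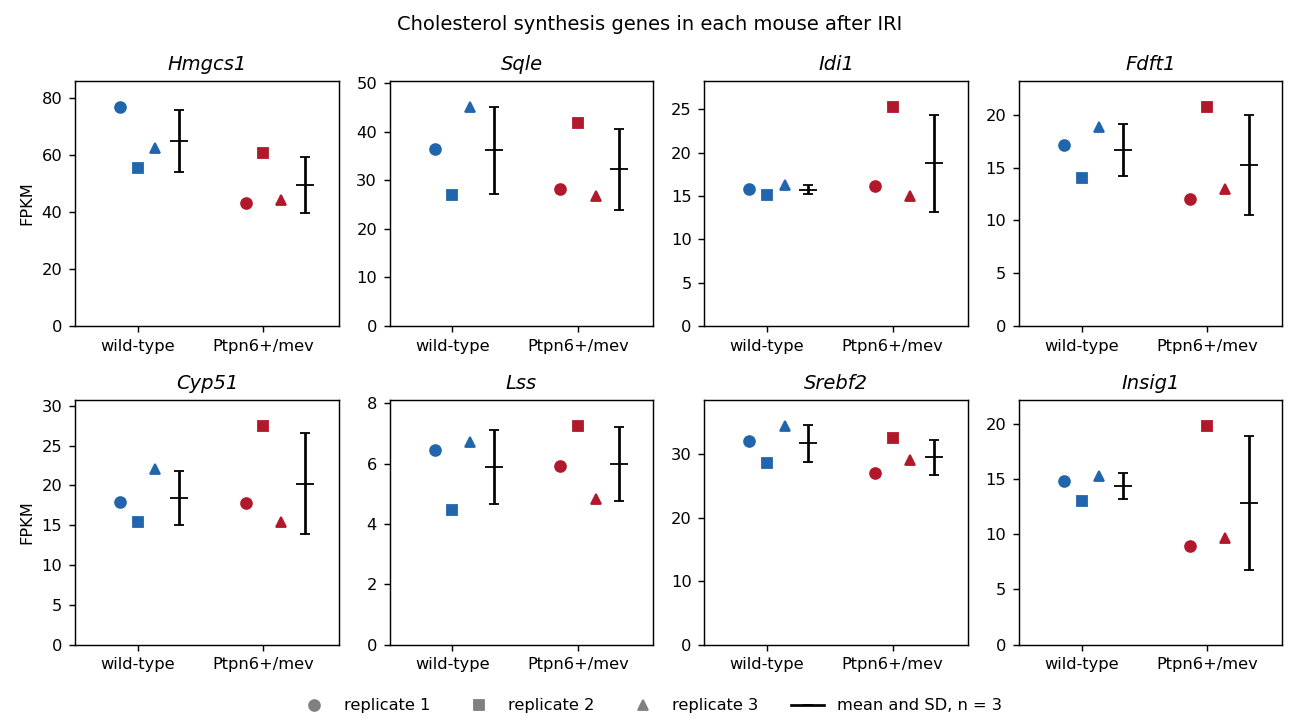
FPKM of the 8 genes (vertical axis, from 0) in each of the 3 wild-type mice (blue) and 3 *Ptpn6*+/mev mice (red), with symbols for replicates 1 to 3 and black bars for the mean and SD (n = 3). Red squares, *Ptpn6*+/mev replicate 2, are the highest of their group in 8 of 8 panels, and in no panel do the groups separate.

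By mean FPKM over the 6 mice, the genes ranked *Hmgcs1* (57.2), *Sqle* (34.2), *Srebf2* (30.7), *Cyp51* (19.4), *Idi1* (17.2), *Fdft1* (16.0), *Insig1* (13.6) and *Lss* (5.94). Each gene was above the next in 6 of 6 mice, except that *Sqle* exceeded *Srebf2*, and *Idi1* exceeded *Fdft1*, in only 4 of 6. These neighbours therefore cannot be ordered beyond their spread.

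Across the set, 0 of the 8 genes were higher and 0 were lower by the quasi-likelihood test of edgeR at an adjusted p under 0.05, which called 0.069% of the 13036 genes tested higher, 0.069% lower and 0.138% in all. At an unadjusted p under 0.05 there was 1 gene, *Hmgcs1*, against 12.2% of all genes tested. DESeq2's Wald test and edgeR's exact test also called 0 of the 8, with 2.97% and 2.99% of all genes called. The median log2 fold change of the 8 genes was -0.20, with 6 below 0 and 2 above, while that of all genes tested was -0.002. All 8 passed the filter on low counts. For 0 of the 8 did the FPKM values of the groups not overlap, against 20.4% of all genes tested. The 95% interval of each of the 8 lay within a 2-fold change in either direction, as did that of 81.1% of all genes tested, so changes under 2-fold remain within the intervals.

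The mevalonate and sterol enzymes outside the set numbered 15, all tested. Of these 0 rose, 0 fell and 15 did not pass, where 0.138% of all genes tested passed. Their median log2 fold change was -0.09 (range -0.44 to 0.48, lowest adjusted p = 0.255 in edgeR's quasi-likelihood test). *Acat2*, which joins acetyl-CoA units at the start of the pathway, had 52.2 ± 3.79 FPKM in *Ptpn6*+/mev and 55.2 ± 1.74 in wild-type mice (SD, n = 3 each). *Fdps*, which makes farnesyl diphosphate, had 49.8 ± 16.1 and 46.6 ± 6.38 FPKM in the same order, and *Msmo1*, a sterol 4-methyl oxidase, had 35.8 ± 10.2 and 34.9 ± 1.01. In *Fdps* and *Msmo1* the *Ptpn6*+/mev SD was the larger, with replicate 2 the highest mouse, at 68.3 and 47.4 FPKM.

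Groups did not overlap in 2 of these 15 enzymes (against 20.4% of all genes tested), which were singled out after their values were seen. *Pmvk*, the phosphomevalonate kinase, had 15.3 to 19.3 FPKM in *Ptpn6*+/mev mice and 9.61 to 12.85 in wild-type mice (log2 fold change 0.48, standard error 0.16, adjusted p = 0.283, edgeR). *Hsd17b7*, a sterol 3-ketoreductase, had 6.54 to 7.70 and 8.95 to 9.92 FPKM in the same order (log2 fold change -0.44, standard error 0.14, adjusted p = 0.255, edgeR). They were also the 2 with an unadjusted p under 0.05 (against 12.2% of all genes tested), in opposite directions, and neither passed. Both shares are near or below those of all genes.

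**Figure D2:**
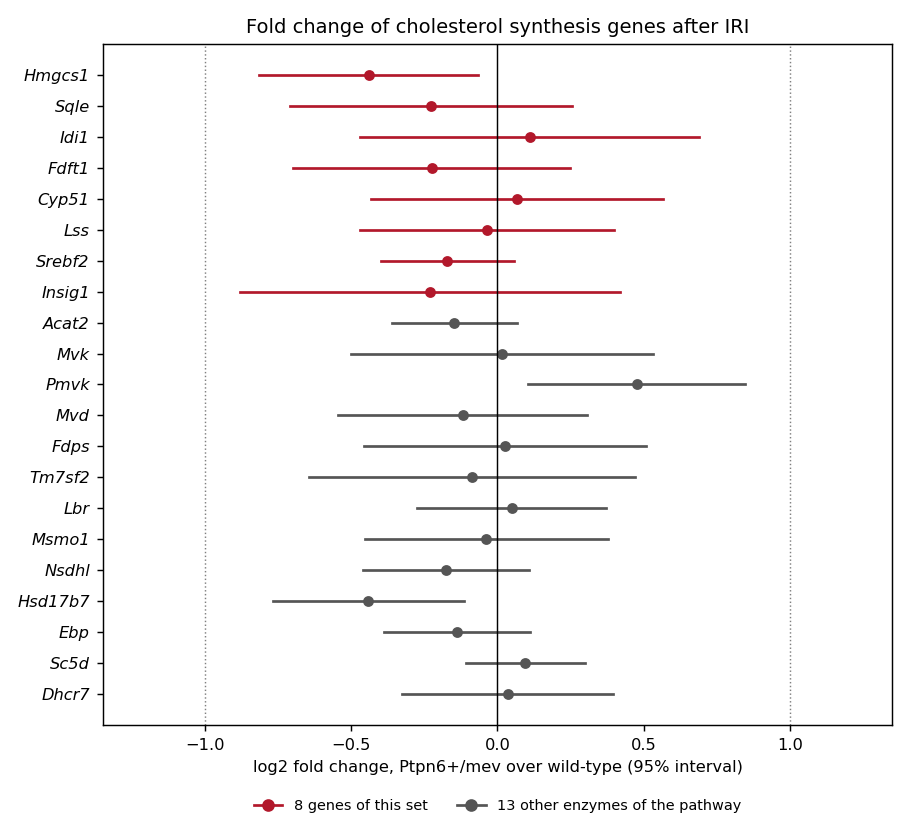
Log2 fold change of *Ptpn6*+/mev over wild-type mice (horizontal axis) from edgeR's quasi-likelihood fit with its 95% interval, for the 8 genes (red) and 13 of the other enzymes (grey); dotted lines mark a 2-fold change. The intervals of *Hmgcs1*, *Pmvk* and *Hsd17b7* leave out 0 before adjustment, and all intervals drawn lie between the dotted lines.

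The counts of the next 4 lists stand against 0.138% of all genes tested that were called, 12.2% with an unadjusted p under 0.05 and 20.4% with groups that did not overlap. Genes that sense sterols or process SREBPs were tested in 9 of 9 cases, with 0 called, 0 at an unadjusted p under 0.05, 0 without overlap, a median log2 fold change of -0.02 and a range from -0.21 to 0.07. *Erlin2*, which takes part in protein degradation at the endoplasmic reticulum, had 56.5 ± 6.86 FPKM in *Ptpn6*+/mev mice against 52.9 ± 4.53 in wild-type mice (SD, n = 3 each). *Scap*, the escort of SREBP2, had 28.2 ± 1.97 and 28.0 ± 5.87 FPKM.

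For sterol uptake and transport, 7 of the 8 listed genes were tested, 0 were called and 1 had an unadjusted p under 0.05 (median log2 fold change 0.01), and the groups did not overlap for *Npc1* and *Scarb1*. That gene was *Stard4*, a sterol carrier raised by SREBP2, with 11.1 ± 1.87 FPKM in *Ptpn6*+/mev and 14.3 ± 2.14 in wild-type mice (log2 fold change -0.34, adjusted p = 0.314, edgeR). *Npc2*, *Tmem97* and *Scarb1* had log2 fold changes of 0.01, -0.04 and 0.24. *Npc1l1*, the intestinal sterol importer, did not pass the filter on low counts.

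Among LXR receptors, efflux and oxysterol genes, 0 of 9 were called and 1, *Cyp27a1*, a mitochondrial sterol hydroxylase, had an unadjusted p under 0.05 (log2 fold change -0.43), with a median log2 fold change of -0.12 and a range from -0.49 to 0.24. *Apoe*, a lipid carrier, had 119.5 ± 6.87 FPKM in *Ptpn6*+/mev and 141.5 ± 24.6 in wild-type mice (adjusted p = 0.426, edgeR), and the receptor genes *Nr1h2* and *Nr1h3* had log2 fold changes of 0.03 and -0.22. The groups did not overlap for *Cyp27a1* and *Nr1h2*. Of the cholesterol esterification and ester hydrolysis genes, 0 of the 4 tested were called and 2 had an unadjusted p under 0.05, in opposite directions, and the groups did not overlap for the same 2, *Lipa* and *Soat1*. *Lipa*, the lysosomal acid lipase, had 77.6 ± 6.35 and 96.0 ± 14.7 FPKM (log2 fold change -0.38, adjusted p = 0.331, edgeR), and *Soat1*, which esterifies cholesterol, 9.77 ± 2.00 and 5.92 ± 1.06 (log2 fold change 0.34, adjusted p = 0.262, edgeR).

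The spread between mice of a group was larger in the set than in the median gene. On TMM-scaled log2 CPM, the counts relative to the scaled total of each library, the pooled within-group SD had a median of 0.33 over the 8 genes and 0.19 over all genes tested. *Insig1* (0.45), *Idi1* (0.41) and *Cyp51* (0.34) had the largest SDs and *Srebf2* (0.11) the smallest. The share of a gene's variance between the groups ranged from 0.342% for *Cyp51* to 55.0% for *Hmgcs1*, with a median of 15.9% for the set and 18.4% for all genes tested.

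Averaged over the 8 genes, the log2 CPM relative to each gene's own mean was -0.25, 0.34 and -0.35 in the *Ptpn6*+/mev animals, and the wild-type animals had 0.10, -0.04 and 0.19. The 3 *Ptpn6*+/mev mice thus included the highest and the 2 lowest of all 6. On this scale *Ptpn6*+/mev replicate 2 was the highest of its group in 8 of 8 genes, against 37.2% of all genes tested, and the highest of all mice in 5 of 8, against 14.5%. The lowest of all mice was *Ptpn6*+/mev replicate 1 or 3 in 8 of 8 genes, against 29.4%, whereas by FPKM wild-type replicate 2 was the lowest for *Cyp51* and *Lss*. The 15 other enzymes averaged -0.14, 0.22 and -0.16 in *Ptpn6*+/mev replicates 1 to 3, and replicate 2 was the highest of its group in 13 of them. Wild-type replicate 2 was the lowest wild-type mouse in 8 of 8 genes by FPKM (54.1% of all genes tested) and in 6 of 8 by TMM-scaled CPM (41.9%). The exceptions on CPM were *Hmgcs1* and *Idi1*, the members with the largest ratios of implied transcript length between libraries (1.1 and 1.43), and FPKM and CPM differ in that length as well as in scaling.

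**Figure D3:**
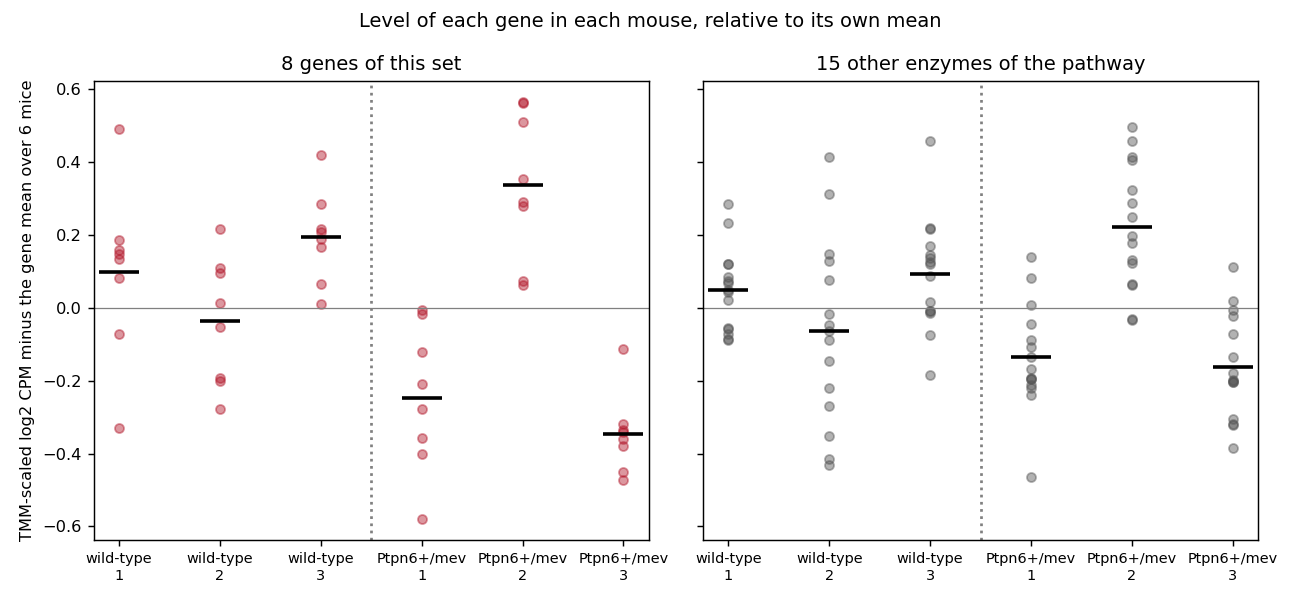
TMM-scaled log2 CPM of each gene minus its own mean over the 6 mice (vertical axis) by mouse, for the 8 genes (left) and the 15 other enzymes (right); points are genes and black bars their mean. On the left the mean is 0.34 in *Ptpn6*+/mev replicate 2 and -0.25 and -0.35 in replicates 1 and 3, and on the right the same mice lie at 0.22, -0.14 and -0.16.

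Likeness to the mean profile of the set was measured as the root mean square difference of centred log2 CPM over the 6 mice, as a description. Outside the set the 5 closest genes were *Rccd1* (0.050), *Zfp11* (0.078), *Ddx59* (0.087), *Fdps* (0.097) and *Elp6* (0.104), where the median gene had 0.308. *Fdps* is the enzyme of the pathway between *Idi1* and *Fdft1*. Of the 15 other enzymes, 7 were among the closest 130 genes, which is 1% of those tested, *Fdps*, *Msmo1* and *Nsdhl* ahead of the rest. *Idi1* (0.258) and *Hmgcs1* (0.213) were the members least like their own mean.

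Other cell populations were measured beside this mouse pattern. The 6 proliferation markers together had 29.0, 45.3 and 34.7 FPKM in the *Ptpn6*+/mev animals and 10.2 to 16.4 in wild-type mice. Of these, 6 of 6 were highest in *Ptpn6*+/mev replicate 2, against 17.5% of all genes tested. Their groups did not overlap in 6 of 6 (20.4% of all genes tested), with a median log2 fold change of 1.5. In edgeR 6 of 6 had an unadjusted p under 0.05 (12.2% of all genes tested) and 0 were called. Proximal tubule markers (8 genes) summed to 937 to 1033 in *Ptpn6*+/mev and 1186 to 1341 in wild-type mice, and 5 of the 8 were highest of their group in *Ptpn6*+/mev replicate 2 (62.5%, against 36.2% of all genes tested). Without *Slc27a2*, the most abundant of them, the other 7 had 454, 565 and 479 FPKM in the *Ptpn6*+/mev animals and 596 to 724 in wild-type mice. Replicate 2 was then the highest of its group, and this sum was added after the values were seen. Log2 fold changes of the 8 markers ran from -1.11 (*Slc22a6*) to 0.01 (*Slc5a12*), and 0 were called, against 0.138% of all genes tested. Groups did not overlap for 2 of the 8, *Cubn* and *Slc22a6* (20.4% of all genes tested). *Slc22a6* had 70.35 to 99.0 FPKM in *Ptpn6*+/mev mice and 130 to 183 in wild-type mice. Macrophage markers (6 genes) together had 87.3, 111 and 96.2 FPKM in the *Ptpn6*+/mev animals and 55.5 to 101 in wild-type mice. Neutrophil markers (5 genes) summed to 47.8 in *Ptpn6*+/mev replicate 2, against 17.8 to 35.5 in the other mice. Of that sum *S100a9* gave 42.4, and the other 4 markers, 3 of which did not pass the filter on low counts, were highest in *Ptpn6*+/mev replicate 3. Tubular injury markers (6 genes) together had 5271, 5463 and 6542 FPKM in the *Ptpn6*+/mev animals and 4922 to 5415 in wild-type mice. *Lcn2* gave 1183, 1130 and 2269 of the *Ptpn6*+/mev sums. Log2 fold changes of the 6 injury markers ran from -0.08 (*Sox9*) to 1.05 (*Vcam1*). Groups did not overlap for 2 of the 6, *Havcr1* and *Vcam1* (20.4% of all genes tested). Distal nephron markers (5 genes) ranged from 2002 to 2915 over the 6 mice, of which *Umod* gave 1628 to 2556. The part of any of these in the level of the 8 genes was not tested. Adrenal cortex, a tissue beside the kidney with high cholesterol synthesis, was near absent: its 7 markers summed to 1.08 to 3.88 FPKM, and *Cyp11a1*, *Cyp11b2* and *Cyp21a1* were listed at 0 in every library. The 5 liver markers summed to 37.05 to 54.4 FPKM in the 6 mice, with *Ttr* the most abundant. Of the 4 tested, *Alb* (log2 fold change -1.49, adjusted p = 0.0852, edgeR) and *Serpina1a* (-1.09, adjusted p = 0.231) had no overlap between the groups and lower values in *Ptpn6*+/mev mice, as had 6.38% of all genes tested, and neither passed. *Ttr* (0.31) and *Apoa2* (-0.47) overlapped.

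Each mouse was left out in turn. Without *Ptpn6*+/mev replicate 2 all 8 genes had a log2 fold change below 0, the median was -0.35, and 5 of the 8 had an unadjusted p under 0.05 (*Insig1*, *Hmgcs1*, *Fdft1*, *Sqle* and *Srebf2*), against 10.4% of all genes tested without this mouse. Without any other mouse the count was lower: 0 of the 8 without *Ptpn6*+/mev replicate 1 (8.63% of all genes tested), *Ptpn6*+/mev replicate 3 (8.0%) or wild-type replicate 1 (9.22%), and 1 without wild-type replicate 2 (17.2%) or 3 (14.1%). By TMM-scaled CPM, *Ptpn6*+/mev replicate 2 was the highest of its group in 8 of 8 genes, against 37.2% of all genes tested. Leaving it out therefore lowers each of the 8 by construction. The 10.4% is thus no like comparison, and no conclusion is drawn from the 5 of 8. Without *Ptpn6*+/mev replicate 2, *Insig1* moved most, from -0.23 to -0.69 (adjusted p = 0.14, edgeR), and *Fdft1* was -0.51 (adjusted p = 0.273). In that fit still 0 of the 8 were called, with 0.0834% of all genes called. Without *Ptpn6*+/mev replicates 1 and 3, *Insig1* was instead -0.03 and -0.06, and *Fdft1* -0.09 and -0.11. With wild-type replicate 2 left out, the median was -0.24 and 0 of the 8 were called, though 1.8% of all genes then were. Without *Ptpn6*+/mev replicate 1 or 3 the median was -0.06 and -0.08, and without wild-type replicates 1 and 3 it was -0.20 and -0.10.

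**Figure D4:**
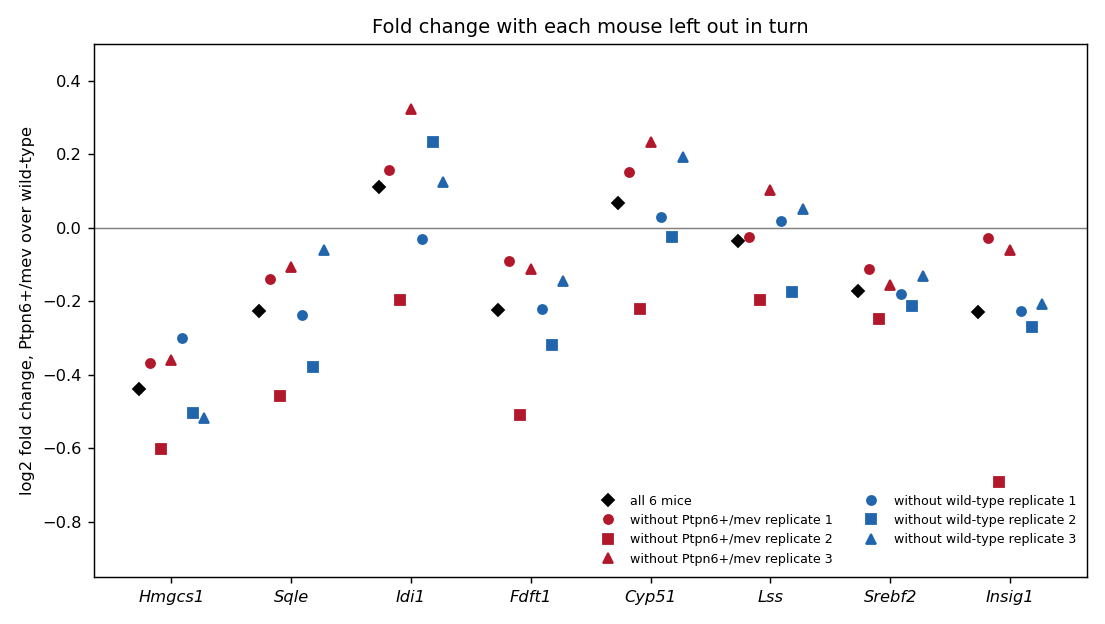
Log2 fold change of *Ptpn6*+/mev over wild-type mice (vertical axis) of the 8 genes with all 6 mice (black diamonds) and with each *Ptpn6*+/mev (red) or wild-type (blue) mouse left out, from edgeR's quasi-likelihood fit. Red squares, without *Ptpn6*+/mev replicate 2, are the lowest value of each gene, -0.69 for *Insig1* and -0.60 for *Hmgcs1*.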

How the data were processed

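Poly-A mRNA of 6 left kidneys, 1 library per mouse, was sequenced as read pairs. The authors cleaned the reads and aligned them to GRCm38.p5 with TopHat, and the submitters' processing notes name Bowtie2, TopHat2 2.0.3.12, Cufflinks and RSEM. The authors deposited estimated counts and FPKM values (fragments relative to transcript length and to the library's total) for 21367 genes. Of these, 1744 had fractional counts, which were rounded. FPKM is not corrected for composition, so a few very abundant genes in a library lower the rest.

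The 8 genes, the other gene lists, the markers and the tests were chosen with earlier results of these data known. The quasi-likelihood F-test of edgeR 4.0.16 (R 4.3.3) with TMM scaling was applied to the 13036 genes that passed its filterByExpr, with Benjamini-Hochberg adjustment over all of them and a threshold of 0.05. Standard errors were derived from the log2 fold change and the F statistic, and 95% intervals from these. Levels are FPKM, and log2 CPM used a prior count of 2. Replicates are the numbered mice of the labels.

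Alternatives were DESeq2 size factors, upper quartile scaling, DESeq2 1.42.0, edgeR's exact test, limma 3.58.1 on log2(FPKM + 1) or log2(FPKM + 0.1), no count filter, at least 10 counts in every library, a replicate block, and each library left out. The tests were first tested on simulated data with known changes. There the quasi-likelihood test recovered 34.3% of 1.5-fold and 67.2% of 2-fold changes, and 5.8% of its calls were false. False calls were 19.7% with edgeR's exact test and 16.2% with DESeq2. Named genes were the members, their paralogs, up to 4 genes per list by mean FPKM, genes the test called, and the 5 genes with the most similar profile; others were chosen after their values were seen. Some genes of these lists are not reported here by name. Positions are from GENCODE M21 (GRCm38). Figures used matplotlib 3.10.9 in Python 3.11.15.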

Additional observations from a re-analysis of the deposited data

How the results depend on the processing

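In each of the 15 alternatives, 0 of the 8 genes and 0 of the 15 other enzymes were called. The median log2 fold change of the 8 genes ranged from -0.35 to -0.06, both ends with 1 library left out. The number of all genes called, 18, became 387 with DESeq2's Wald test, 390 with edgeR's exact test, 52 without a count filter and 1 with the replicate block, and with 1 library left out it was highest, 237, when wild-type replicate 2 was dropped and lowest, 1, when *Ptpn6*+/mev replicate 3 was. Same-numbered mice did not deviate together (correlations over genes of -0.144, -0.184 and -0.130). These are deviations from group means of 3 mice, which sum to 0 within a group. They therefore cannot decide whether the numbers pair the mice, and no conclusion is drawn. The replicate block left the median at -0.21. Small fold changes turned direction in 9 of 120 refits. *Lss* was 0.03 with limma at either pseudocount (0.0269 and 0.0316), where the median of all genes was 0.06 and 0.08, and reached 0.02, 0.05 and 0.10 without wild-type replicate 1, wild-type replicate 3 and *Ptpn6*+/mev replicate 3. With 1 library left out, *Idi1* ranged from -0.20 to 0.32 and *Cyp51* from -0.22 to 0.23: *Idi1* was -0.20 and *Cyp51* -0.22 without *Ptpn6*+/mev replicate 2, *Idi1* was -0.03 without wild-type replicate 1, and *Cyp51* was -0.03 without wild-type replicate 2; the cause was not tested. The 8 genes had 230 to 2671 counts per library. The labels name separate mice, so each p-value sets the group difference against the spread between mice within groups. In edgeR that spread was estimated with information shared across genes.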

Other observations

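Fatty acid synthesis genes, the SREBP1 side of lipid synthesis, had 0 of 8 called, against 0.138% of all genes tested. Of the 8, 2 were lower at an unadjusted p under 0.05, and the median log2 fold change was -0.24. *Acss2*, the cytosolic acetyl-CoA synthetase, had 19.5 ± 2.49 FPKM in *Ptpn6*+/mev and 27.4 ± 1.37 in wild-type mice (SD, n = 3 each), with a log2 fold change of -0.58 (standard error 0.12, adjusted p = 0.104, edgeR's quasi-likelihood test). The groups did not overlap for *Acss2* and *Me1*, the cytosolic malic enzyme (log2 fold change -0.25, adjusted p = 0.306), 2 of 8 where 20.4% of all genes tested did not overlap and 12.2% had an unadjusted p under 0.05. *Ptpn6*+/mev replicate 2 was the highest of its group in 3 of these 8 genes by FPKM (37.5%, against 36.2% of all genes tested) and in 4 of 8 by TMM-scaled CPM.

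In the isoprenoid branch, which leads to ubiquinone, dolichol and protein prenylation, 0 of 9 genes were called and 1 was higher at an unadjusted p under 0.05, with log2 fold changes from -0.18 to 0.23. *Coq2*, *Fnta* and *Nus1* were the most abundant, and the groups did not overlap for *Fnta*, a subunit of protein farnesyltransferase (51.2 ± 1.91 and 41.4 ± 0.10 FPKM, log2 fold change 0.23, adjusted p = 0.316), 1 of 9 against the same shares of all genes. The deposited table assigned 19 genes to the KEGG steroid biosynthesis pathway, of which 18 were tested. The single gene called there, where 0.138% of all genes tested were called, was *Cyp24a1* (log2 fold change -1.26, adjusted p = 0.0107), a vitamin D hydroxylase that makes no cholesterol.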
